A study of Mus musculus with 9 samples.

Results

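The 10 genes described here encode 8 secreted ligands of the transforming growth factor beta (TGF-beta) superfamily and 2 extracellular antagonists of them. They are the TGF-beta isoforms Tgfb1, Tgfb2 and Tgfb3, the bone morphogenetic proteins (BMP) Bmp2, Bmp4, Bmp6 and Bmp7, the activin subunit Inhba, and the antagonists Nog and Chrdl1. They were taken as a fixed list of gene symbols out of 24170 genes in the count tables, and all 10 had enough counts to be among the 14848 genes tested.

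Ligands of this superfamily are made as precursors, cut and secreted as dimers. They bind pairs of type I and type II receptor kinases on the receiving cell, which phosphorylate SMAD proteins that then enter the nucleus with the shared partner SMAD4. TGF-beta isoforms and activins act mostly through SMAD2 and SMAD3, and BMPs through SMAD1, SMAD5 and SMAD9. TGF-beta is held in an inactive complex in the matrix until it is released, and BMPs are blocked outside the cell by proteins such as noggin (Nog) and chordin-like 1 (Chrdl1). In neural tissue BMPs are known for favouring astrocyte over oligodendrocyte fates, and TGF-beta isoforms for acting on neuron survival and glial growth.

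Messenger RNA was sequenced from 9 purified primary mouse cultures, 3 biological replicates of each of 3 cell types. Astrocytes were taken from the cortex of pups aged 1 to 3 days and cultured to confluence, which took about 21 days. Neurons of the dorsal root ganglia (DRG), the sensory ganglia that flank the spinal cord, were taken at embryonic stage E13.5 and cultured for about 2 weeks (DRG cultures below). Oligodendrocyte progenitor cells (OPC), the precursors of myelinating cells, were taken from the cortex of pups aged 6 to 9 days and cultured for 6 to 7 days. Mice of either sex were used for both cortical cultures. No strain, genotype, treatment or number of animals per culture is given in the labels. Age, time in culture and, for the ganglia, tissue changed together with cell type, so their parts in any difference below cannot be told apart.

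Assigned counts ran from 30710093 to 53594210 per library. The summed level of 10 neuron genes was 24510 to 48580 CPM (counts scaled to the size of the library) in DRG libraries and 108 to 167 CPM in the others, although Prph had 0 counts in every library and Syt1 and Rbfox3 stayed below 1 CPM in DRG. The 10 astrocyte genes summed to 6747 to 8569 CPM in astrocytes and at most 1256 CPM elsewhere. The 9 OPC genes summed to 7177 to 10710 CPM in OPC, 1480 to 2423 CPM in astrocytes and 22.7 to 38.5 CPM in DRG. Libraries of 1 cell type were not alike in other cell types' markers. Microglia genes summed to 2924, 510 and 477 CPM in Astrocytes replicates 1 to 3 and to 19.5, 65.5 and 232 CPM in OPC replicates 1 to 3. Genes of fibroblasts and mural cells summed to 1160, 8407 and 9862 CPM in Astrocytes replicates 1 to 3. Genes of Schwann cells and satellite glia, which surround sensory neurons, summed to 2925 to 7961 CPM in DRG libraries and at most 2472 CPM elsewhere. Endothelial genes summed to at most 50.6 CPM in any library. OPC replicate 1 held 786 CPM of Gpr17 and 63.8 CPM of Myrf, genes of differentiating oligodendrocytes, against at most 9.84 and 6.14 CPM, respectively, in OPC replicates 2 and 3. In cultures of this kind, fewer cells of a type and less RNA per cell cannot be told apart.

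All member genes are annotated as protein coding. The RefSeq promoter table (GRCm38.p6) held entries for 5 members, Tgfb1, Tgfb2, Bmp4, Bmp6 and Inhba. The 250 bases before the start that this table gives were searched. For Tgfb2 and Inhba that start lies inside the gene span printed below, so the window is not the one before the outermost start of the gene. The E-box CACGTG occurred in 3 of these 5 windows, once each in Tgfb2, Bmp4 and Bmp6, and in 6.02% of 32851 promoter windows of the same length. The windows of Bmp4 and Tgfb2 are shown because both held it and lie outside the annotated exons of their gene. Capitals mark the E-box.

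Bmp4, chr14:46390670-46390919, minus strand: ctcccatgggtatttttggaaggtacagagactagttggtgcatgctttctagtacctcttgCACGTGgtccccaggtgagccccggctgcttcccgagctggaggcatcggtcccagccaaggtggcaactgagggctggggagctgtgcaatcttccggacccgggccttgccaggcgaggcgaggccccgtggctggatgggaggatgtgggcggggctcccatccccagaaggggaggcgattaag

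Tgfb2, chr1:186705990-186706239, minus strand: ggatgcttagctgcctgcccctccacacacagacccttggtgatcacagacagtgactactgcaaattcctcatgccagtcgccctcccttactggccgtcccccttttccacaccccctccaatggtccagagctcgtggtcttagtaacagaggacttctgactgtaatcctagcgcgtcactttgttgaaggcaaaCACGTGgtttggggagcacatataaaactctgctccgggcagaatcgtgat

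The E-box began 188 bases before the table's start in Bmp4 and 51 bases before it in Tgfb2. In Bmp6 it began 127 bases before the RefSeq start (chromosome 13, plus strand), but all 250 bases of that window lie in a GENCODE exon of the gene, so it is not shown. Tgfb2 also held a TATA box (TATAAA, 31 bases before the table's start; in 12.4% of windows) and 2 copies of the SMAD-binding letters CAGAC (in 42.2% of windows). Inhba held TATAAA 91 bases before the start in the table, and Tgfb1 held 5 copies of the GC box GGGCGG, a sequence found in 32.7% of windows. The SMAD-binding letters GGCGCC (9.59% of windows), the cAMP response element TGACGTCA (1.55%) and the AP-1 site TGACTCA (4.46%) were in none of the 5 windows. All letters were searched on both strands. Such matches describe the sequence only, and E-boxes were singled out after the windows had been read.

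The 3 cell types differed in the make-up of their ligand mRNA. Mean levels of every member except Bmp7 were highest in astrocytes, though not every such difference passed the test. OPC had the highest Bmp7 and little Tgfb3, Inhba or Bmp6, and DRG cultures held Tgfb3 but little mRNA of the 4 BMPs. In DRG cultures against astrocytes, 8 members were lower and 0 higher at an adjusted p under 0.05, against 60.2% of all 14848 genes called in that comparison (27.4% higher and 32.8% lower). The members' median log2 difference was -2.23, against -0.13 over all genes. In DRG cultures against OPC, 5 members were called, 3 higher and 2 lower, against 59.5% of all genes (28.4% higher and 31.1% lower), with medians of -0.54 for the members and -0.08 for all genes. In OPC against astrocytes, 6 members were called, 1 higher and 5 lower, against 51.8% of all genes (26.3% higher and 25.5% lower), with medians of -2.43 and 0.09. The shares called in the last 2 comparisons, 50.0% and 60.0% of members, are near those of all genes. The comparisons share libraries and are not independent of each other. Without DRG replicate 2, 5 members were called in DRG cultures against astrocytes. Every p of a gene given below is from edgeR's quasi-likelihood test with Benjamini-Hochberg adjustment over all genes tested.

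**Figure D1:**
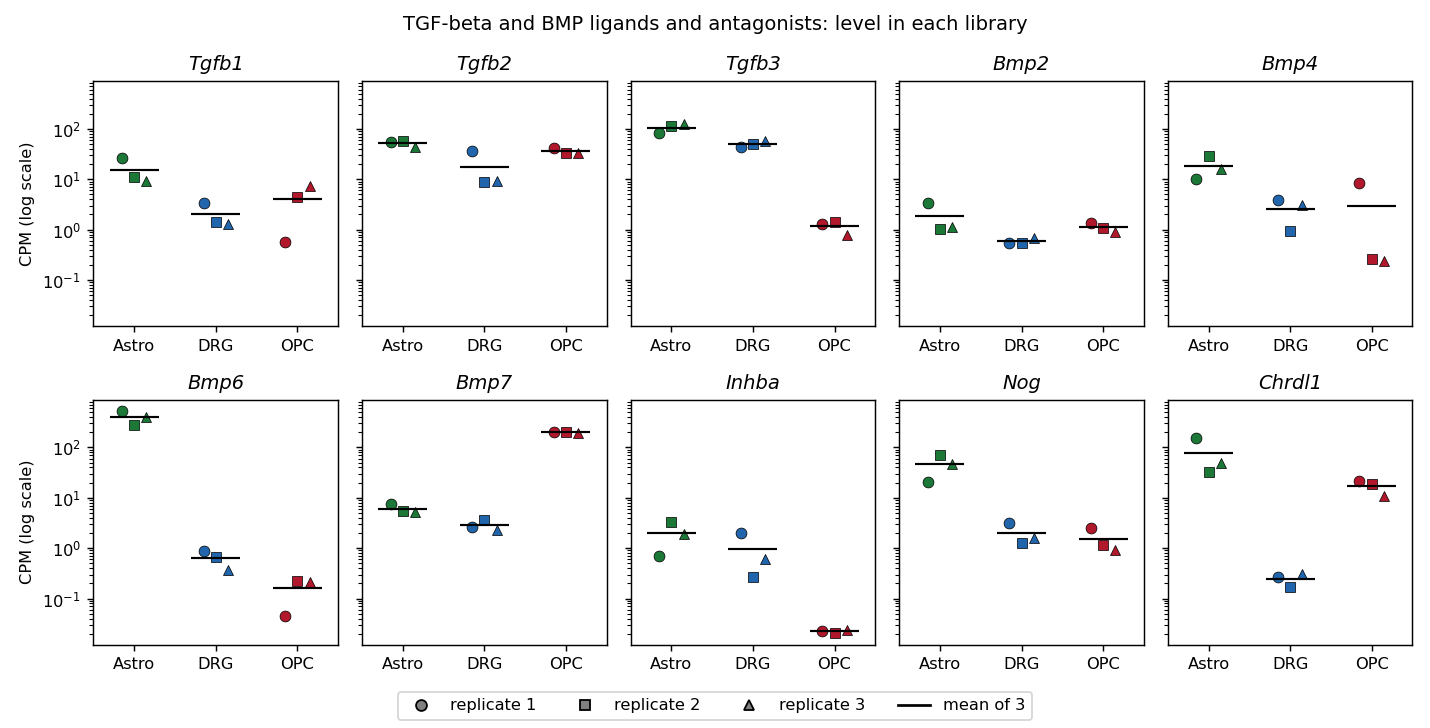
Level of each member (CPM, log scale) in the 9 libraries; circles, squares and triangles are replicates 1, 2 and 3, and lines are means of 3. Bmp6 sits at 281 to 536 CPM in astrocytes and below 1 CPM elsewhere, Bmp7 at 192.7 to 202.5 CPM in OPC, and Bmp4 in OPC splits into 1 high and 2 low libraries.

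Tgfb3, a TGF-beta isoform (chr12:86056743-86079041), was high in astrocytes and DRG cultures and low in OPC. Its level was 82.1, 112 and 123 CPM in Astrocytes replicates 1 to 3, 44.1, 49.0 and 57.1 CPM in DRG replicates 1 to 3, and 1.32, 1.40 and 0.794 CPM in OPC replicates 1 to 3. No groups overlapped, and every astrocyte library was above every DRG library. Astrocytes averaged 106 ± 21.3 CPM, DRG cultures 50.1 ± 6.57 and OPC 1.17 ± 0.331 (SD, n = 3 each). In OPC its level was 89.8-fold below that of astrocytes (log2 -6.49, SE 0.31, adjusted p = 3.46e-06). It was 42.5-fold higher in DRG cultures than in OPC (log2 5.41, SE 0.30, adjusted p = 2.82e-06). Between DRG cultures and astrocytes the difference was smaller, with a log2 of -1.08 (SE 0.25, adjusted p = 0.00431).

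Tgfb2 (chr1:186622787-186709697), the isoform whose promoter window is printed above, was the highest of the TGF-beta isoforms in OPC per length. It stood at 54.9, 58.3 and 43.7 CPM in Astrocytes replicates 1 to 3, 35.7, 8.88 and 9.04 CPM in DRG replicates 1 to 3, and 41.6, 33.7 and 33.7 CPM in OPC replicates 1 to 3. DRG replicate 1 fell within the range of OPC, while DRG replicates 2 and 3 were below every glial library. Tgfb2 was lower in DRG cultures than in astrocytes by 2.93-fold (log2 -1.55, SE 0.50, adjusted p = 0.0236). That call rests on single libraries: the adjusted p was 0.0540, 0.0738 and 0.0734 without Astrocytes replicate 2, DRG replicate 2 and DRG replicate 3, and without DRG replicate 1 the log2 was -2.54 (adjusted p = 8.06e-05). It also ended when only the libraries compared were fitted (adjusted p = 0.0655) and without Astrocytes replicate 1 and OPC replicate 3 together (adjusted p = 0.0705). DRG cultures and OPC did not pass the test (log2 -1.02, SE 0.50, adjusted p = 0.102), but did without DRG replicate 1 (log2 -2.02, adjusted p = 0.000207). OPC and astrocytes did not overlap, with 36.3 ± 4.53 against 52.3 ± 7.67 CPM (SD, n = 3), yet did not pass the test (log2 -0.53, SE 0.49, adjusted p = 0.398). That comparison passed with DRG replicate 1 left out (adjusted p = 0.0453) and when only the 6 libraries compared were fitted (adjusted p = 0.0337).

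Tgfb1 (chr7:25687002-25705077), the isoform that immune cells are known for, was highest in astrocytes and uneven within each cell type. Its level was 26.6, 11 and 9.07 CPM in Astrocytes replicates 1 to 3, 3.45, 1.41 and 1.29 CPM in DRG replicates 1 to 3, and 0.581, 4.4 and 7.41 CPM in OPC replicates 1 to 3. Astrocytes lay above both other groups, which overlapped each other. DRG cultures were 7.61-fold lower than astrocytes (log2 -2.93, SE 0.86, adjusted p = 0.0149). This call was lost when DRG replicate 2 (adjusted p = 0.0568) or DRG replicate 3 (adjusted p = 0.0562) was left out, and without Astrocytes replicate 1 the log2 was -2.30. OPC against astrocytes did not pass (log2 -1.91, SE 0.82, adjusted p = 0.0774), nor did DRG cultures against OPC (log2 -1.02, SE 0.81, adjusted p = 0.303). Without OPC replicate 3 the OPC difference from astrocytes was -2.78 (adjusted p = 0.0468) and that of DRG cultures from OPC -0.05 (adjusted p = 0.967). OPC against astrocytes also passed with DESeq2 (log2 -1.99, adjusted p = 0.0290).

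Microglia genes moved with Tgfb1 from library to library. The 12 microglia genes summed to 477 to 2924 CPM in astrocytes, 9.89 to 20.0 CPM in DRG cultures and 19.5 to 232 CPM in OPC. Of the 12, 9 averaged at least 5 CPM in astrocytes, 1 in DRG cultures and 6 in OPC. Ptprc had 0 counts in DRG cultures and OPC. Among astrocytes the highest microglia sum and the highest Tgfb1 level were both in replicate 1, and in OPC both were lowest in replicate 1 and highest in replicate 3. With the astrocyte and OPC libraries of highest microglia sum both left out, the log2 difference of Tgfb1 between DRG cultures and astrocytes was -2.20 (adjusted p = 0.0415). That of DRG cultures against OPC was -0.05 (adjusted p = 0.960) and that of OPC against astrocytes -2.15 (adjusted p = 0.0889), and neither passed. The part of microglia in the Tgfb1 level was not tested.

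**Figure D2:**
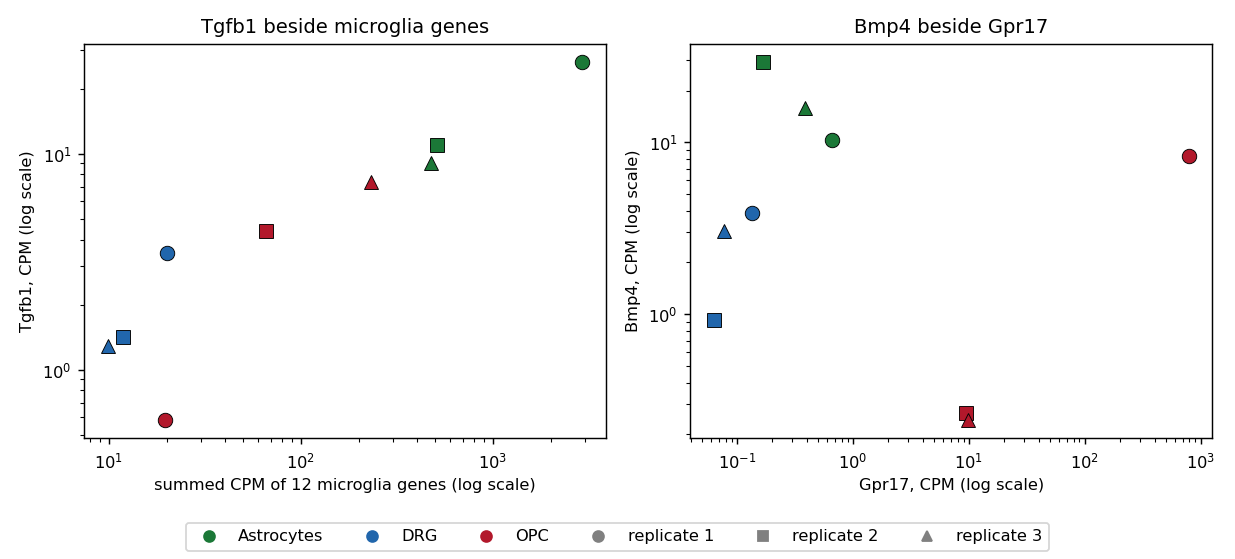
Left, Tgfb1 against the summed level of 12 microglia genes; right, Bmp4 against Gpr17; all axes are CPM on log scales and each point is 1 library. Astrocytes replicate 1 has the highest value on both axes at left, and OPC replicate 1 stands apart at right with 786 CPM of Gpr17 and 8.32 CPM of Bmp4.

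Per kilobase of transcript, which allows levels of different genes to be compared, the isoform make-up differed between the cell types. Tgfb3 made up 64.1 ± 11.6% of the 3 TGF-beta isoforms in astrocytes and 78.0 ± 15.3% in DRG cultures, but 3.78 ± 1.29% in OPC (SD, n = 3). Tgfb2 made up 76.6 ± 14.4% in OPC, against 21.0 ± 3.18% in astrocytes and 17.3 ± 13.1% in DRG cultures. The 3 isoforms together reached 48.6 ± 1.25 CPM per kilobase in astrocytes, 19.2 ± 2.36 in DRG cultures and 9.35 ± 0.773 in OPC, with no overlap between groups.

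Bmp6 (chr13:38345716-38500314), a BMP also known as a regulator of iron balance, was the highest in astrocytes of the 9 members compared per length. Its level was 536, 281 and 407 CPM in Astrocytes replicates 1 to 3, 0.880, 0.674 and 0.362 CPM in DRG replicates 1 to 3, and 0.0447, 0.224 and 0.217 CPM in OPC replicates 1 to 3. The groups did not overlap, and both lower groups rest on few reads, 72 counts over the DRG libraries and 22 over the OPC libraries. Astrocytes averaged 408 ± 128 CPM (SD, n = 3), which was 643-fold above DRG cultures (log2 of DRG minus astrocytes -9.33, SE 0.55, adjusted p = 2.67e-06). OPC differed from astrocytes by a log2 of -11.27 (SE 0.60, adjusted p = 4.80e-06). Within this low range DRG cultures were 3.84-fold above OPC (log2 1.94, SE 0.53, adjusted p = 0.0112). Bmp6 shares 49 annotated bases with Txndc5, and how the strand was treated in counting is not given in the sources used here.

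Bmp7 (chr2:172868012-172940321), a BMP used in culture to turn glial precursors towards astrocytes, was high in OPC alone. It stood at 7.49, 5.34 and 5.31 CPM in Astrocytes replicates 1 to 3, 2.61, 3.64 and 2.30 CPM in DRG replicates 1 to 3, and 201.7, 202.5 and 192.7 CPM in OPC replicates 1 to 3. The OPC libraries were close to each other, at 199 ± 5.43 CPM (SD, n = 3), and no groups overlapped. OPC were 32.9-fold above astrocytes (log2 5.04, SE 0.25, adjusted p = 4.23e-06) and DRG cultures 69.6-fold below OPC (log2 -6.12, SE 0.27, adjusted p = 1.37e-06). DRG cultures were also below astrocytes, by a log2 of -1.08 (SE 0.22, adjusted p = 0.00242).

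Bmp4 (chr14:46383525-46390669), whose promoter window is printed above, is a ligand of early embryonic patterning that newly committed oligodendrocytes also make. Its level was 10.3, 29.4 and 15.8 CPM in Astrocytes replicates 1 to 3, 3.89, 0.926 and 3.05 CPM in DRG replicates 1 to 3, and 8.32, 0.265 and 0.241 CPM in OPC replicates 1 to 3. Every astrocyte library was above every other library, and OPC replicate 1 stood well above OPC replicates 2 and 3. None of the comparisons passed the test. The log2 difference was -2.82 for DRG cultures against astrocytes (SE 1.25, adjusted p = 0.0771), -0.17 for DRG cultures against OPC (SE 1.18, adjusted p = 0.911) and -2.65 for OPC against astrocytes (SE 1.24, adjusted p = 0.101).

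All 3 Bmp4 differences passed the test without OPC replicate 1. The log2 differences were then -2.82 (adjusted p = 0.00398), 3.35 (adjusted p = 0.00640) and -6.17 (adjusted p = 0.00102) in the same order, so that DRG cultures were above OPC. With that library kept, DRG cultures against astrocytes passed with DESeq2 (adjusted p = 0.0224). They also passed without Astrocytes replicate 1 and OPC replicate 3 together (adjusted p = 0.0473). The fit of only the libraries compared passed too (adjusted p = 0.00992), but it holds no OPC library and so leaves out OPC replicate 1 as well. OPC against astrocytes passed with DESeq2 (adjusted p = 0.0246). The 10 oligodendrocyte genes summed to 168 CPM in OPC replicate 1 and to 71.5 and 71.4 CPM in OPC replicates 2 and 3, against 17.0 to 38.9 CPM in astrocytes and 86.4 to 127 CPM in DRG cultures. Of these 10 genes, 4 reached a mean of 5 CPM in the OPC libraries, 1 did so in astrocytes and 2 in DRG cultures, and Mobp had 0 counts in OPC and Opalin in DRG cultures. Mog was below 1 CPM in all libraries. The part of differentiating cells in the Bmp4 level was not tested.

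Bmp2 (chr2:133552159-133562896), a close relative of Bmp4, was low everywhere. Its level was 3.41, 1.045 and 1.11 CPM in Astrocytes replicates 1 to 3, 0.541, 0.547 and 0.697 CPM in DRG replicates 1 to 3, and 1.36, 1.06 and 0.914 CPM in OPC replicates 1 to 3. DRG libraries lay below all others, and astrocytes and OPC overlapped. DRG cultures were 3.11-fold lower than astrocytes (log2 -1.64, SE 0.51, adjusted p = 0.0207), but without Astrocytes replicate 1 the value was -0.85 (adjusted p = 0.0827). The call also ended without DRG replicate 1 (adjusted p = 0.0583) or DRG replicate 2 (adjusted p = 0.0703). DRG cultures against OPC did not pass (log2 -0.90, SE 0.51, adjusted p = 0.156) except without Astrocytes replicate 1 (adjusted p = 0.0466). OPC against astrocytes did not pass either (log2 -0.74, SE 0.50, adjusted p = 0.241). The direction of this last difference turned when Astrocytes replicate 1 was left out, to a log2 of 0.0492 that did not pass (adjusted p = 0.93).

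**Figure D3:**
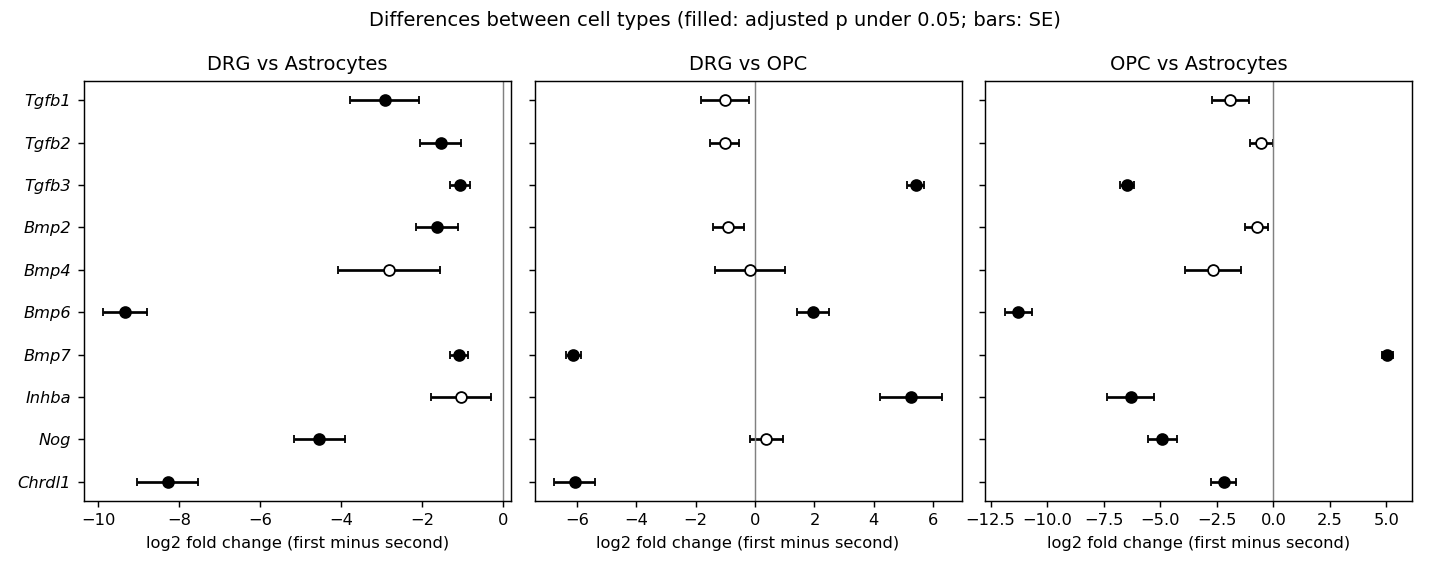
Log2 fold change of each member in the 3 comparisons, as the cell type named in front minus the other, with SE bars; filled points have an adjusted p under 0.05 and the horizontal scales differ. In DRG cultures against astrocytes all 8 filled points lie left of 0, and in OPC against astrocytes Bmp7 alone lies right of it.

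The leading BMP per kilobase of transcript differed between the glial cultures. Bmp6 made up 90.1 ± 6.24% of the 4 BMP mRNAs in astrocytes, and Bmp7 97.0 ± 3.81% in OPC (SD, n = 3). In DRG cultures Bmp4 made up 49.9 ± 21.4% and Bmp7 35.2 ± 17.8%, and their order changed between libraries. The 4 BMPs summed to 125 ± 31.6 CPM per kilobase in astrocytes, 56.0 ± 3.24 in OPC and 2.39 ± 0.605 in DRG cultures. These sums did not overlap between groups.

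**Figure D4:**
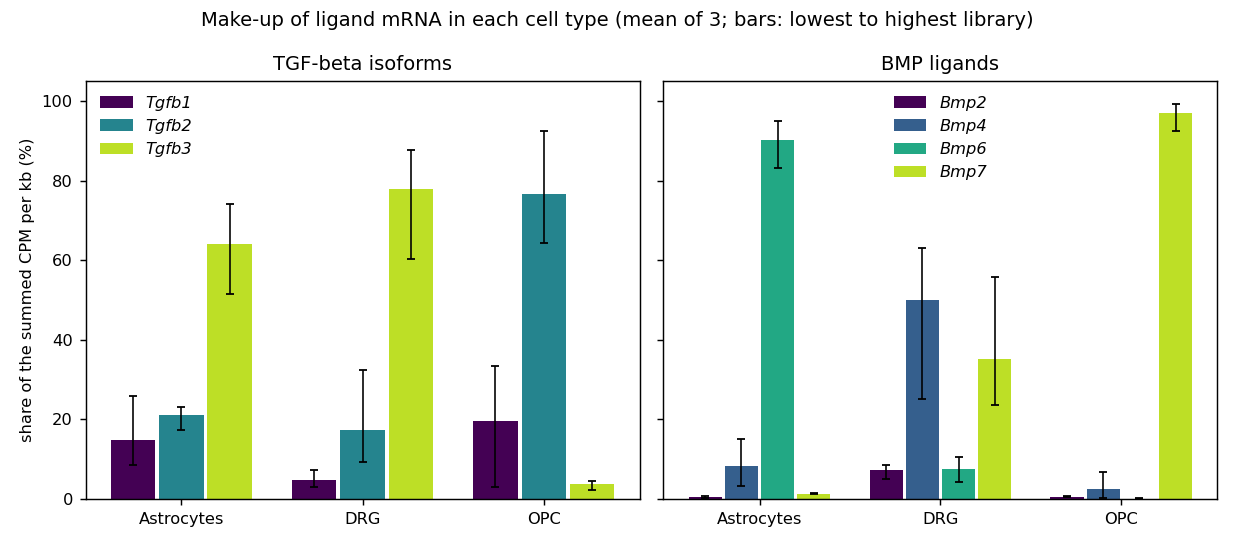
Share of each gene in the summed CPM per kilobase of the TGF-beta isoforms (left) and the 4 BMPs (right); bars are means of 3 libraries and lines run from the lowest to the highest library. Tgfb3 leads in astrocytes and DRG cultures and Tgfb2 in OPC, while Bmp6 leads in astrocytes and Bmp7 in OPC.

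Inhba (chr13:16004256-16031609) encodes the subunit whose dimer is activin A. Its level was 0.696, 3.32 and 1.94 CPM in Astrocytes replicates 1 to 3, 2.03, 0.274 and 0.620 CPM in DRG replicates 1 to 3, and 0.0224, 0.0204 and 0.0241 CPM in OPC replicates 1 to 3. Each OPC level is 1 count, so OPC lay below all other libraries, while astrocytes and DRG cultures overlapped. Over the summed counts, the ratio of DRG cultures to OPC was 37.8 (95% counting interval 12.6 to 187; 97 counts against 3), and that of astrocytes to OPC was 84.8 (28.7 to 414; 247 counts against 3). Both differences passed the test, with fitted log2 values of 5.26 for DRG cultures against OPC (SE 1.04, adjusted p = 0.00202) and -6.30 for OPC against astrocytes (SE 1.05, adjusted p = 0.00110). Their sizes leaned on single libraries, with 4.16 without DRG replicate 1 and -5.70 without Astrocytes replicate 2. DRG cultures and astrocytes did not pass (log2 -1.04, SE 0.74, adjusted p = 0.253), except without DRG replicate 1 (log2 -2.14, adjusted p = 0.0321).

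Nog (chr11:89300638-89302559), whose protein traps BMP2 and BMP4, was highest in astrocytes. It stood at 20.7, 71.1 and 46.9 CPM in Astrocytes replicates 1 to 3, 3.15, 1.26 and 1.58 CPM in DRG replicates 1 to 3, and 2.53, 1.14 and 0.914 CPM in OPC replicates 1 to 3. All astrocyte libraries were above all others, and DRG cultures and OPC overlapped. Nog was 23.3-fold lower in DRG cultures (log2 -4.54, SE 0.63, adjusted p = 0.000267) and 30.2-fold lower in OPC (log2 -4.92, SE 0.64, adjusted p = 0.000308) than in astrocytes. Between DRG cultures and OPC the log2 difference was 0.38 (SE 0.56, adjusted p = 0.586).

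Chrdl1 (chrX:143285674-143394263), a secreted BMP antagonist known as an astrocyte product that matures synapses, was high in astrocytes, intermediate in OPC and lowest in DRG cultures. Its level was 151, 32.7 and 48.9 CPM in Astrocytes replicates 1 to 3, 0.271, 0.168 and 0.310 CPM in DRG replicates 1 to 3, and 21.1, 18.9 and 10.7 CPM in OPC replicates 1 to 3. No groups overlapped, and Astrocytes replicate 1 was far above the other libraries. DRG cultures had 28 counts in all, 312-fold below astrocytes (log2 -8.29, SE 0.75, adjusted p = 2.34e-05) and 67.8-fold below OPC (log2 -6.08, SE 0.70, adjusted p = 8.99e-05). OPC were 4.60-fold below astrocytes (log2 -2.20, SE 0.55, adjusted p = 0.00855). When Astrocytes replicate 1 was left out, the astrocyte differences were -7.36 for DRG cultures and -1.27 for OPC, and both still passed. Chrdl1 is the member with 2 RefSeq transcripts, so its values hold only reads that fall in 1 of them, and it is left out of comparisons per length. The split between the transcripts was alike in the glial cultures, with 61.5 ± 8.37% of counts on the same transcript in astrocytes and 63.9 ± 2.28% in OPC (SD, n = 3).

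The genes of fibroblasts and mural cells, which varied among astrocyte libraries, varied with several members. Their 10-gene sum was 1160 to 9862 CPM in astrocytes, 250 to 552 CPM in DRG cultures and 2.42 to 2.91 CPM in OPC. Of the 10, 6 averaged at least 5 CPM in astrocytes, 6 in DRG cultures and 0 in OPC, where Pdgfrb had 0 counts. Most of the astrocyte sum was Acta2 (413, 4639 and 5998 CPM in replicates 1 to 3) and Tagln (727, 3292 and 3509 CPM). In astrocytes the collagen genes and Fn1 reached at most 164 CPM, and Dcn, Lum, Pdgfrb and Rgs5 stayed below 1 CPM. Astrocytes replicate 1, the lowest astrocyte library in the 10-gene sum, was also the lowest for Nog, Inhba, Bmp4 and Tgfb3. It was the highest astrocyte library for Chrdl1, Bmp6, Bmp7, Bmp2 and Tgfb1, and for the microglia sum. With that library left out, Nog, Tgfb3, Bmp6 and Bmp7 kept their calls against astrocytes in both comparisons. The part of these cells in the members' levels was not tested.

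Likeness to other genes was measured as Pearson's r of log2(CPM + 0.1) over the 9 libraries, as a description, since these share cell type and depth. Bmp6 was closest to Echdc3 (r = 0.998), Chrdl1 to Cc2d2a (0.995), Nog to Gm19705 (0.994), Bmp7 to Hira (0.993) and Tgfb3 to Snhg18 (0.992). Bmp2 was closest to Wdr73 (0.984), Tgfb1 to Arhgdib (0.981), Tgfb2 to Ap3b1 (0.980) and Bmp4 to D030047H15Rik (0.95). Among the members, Bmp6 and Nog were most alike (r = 0.941), and Bmp7 had no close partner (0.420 with Chrdl1).

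The rest of the pathway was read from 10 lists with 103 genes, of which 78 were tested. In DRG cultures against astrocytes 14 of these were higher and 37 lower, in DRG cultures against OPC 30 were higher and 23 lower, and in OPC against astrocytes 8 were higher and 44 lower. These make 65.4%, 68.0% and 66.7% of the pathway genes tested, against 60.2%, 59.5% and 51.8% of all genes, and the first 2 shares are near those of all genes. The counts of each list below stand beside these shares of all genes. In DRG cultures against astrocytes 27.4% were higher and 32.8% lower, and in DRG cultures against OPC 28.4% and 31.1%. In OPC against astrocytes 26.3% were higher and 25.5% lower. The genes named below passed the test with at least a 2-fold difference in 1 cell type against both others, and the receptors and SMADs of highest CPM are added.

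**Figure D5:**
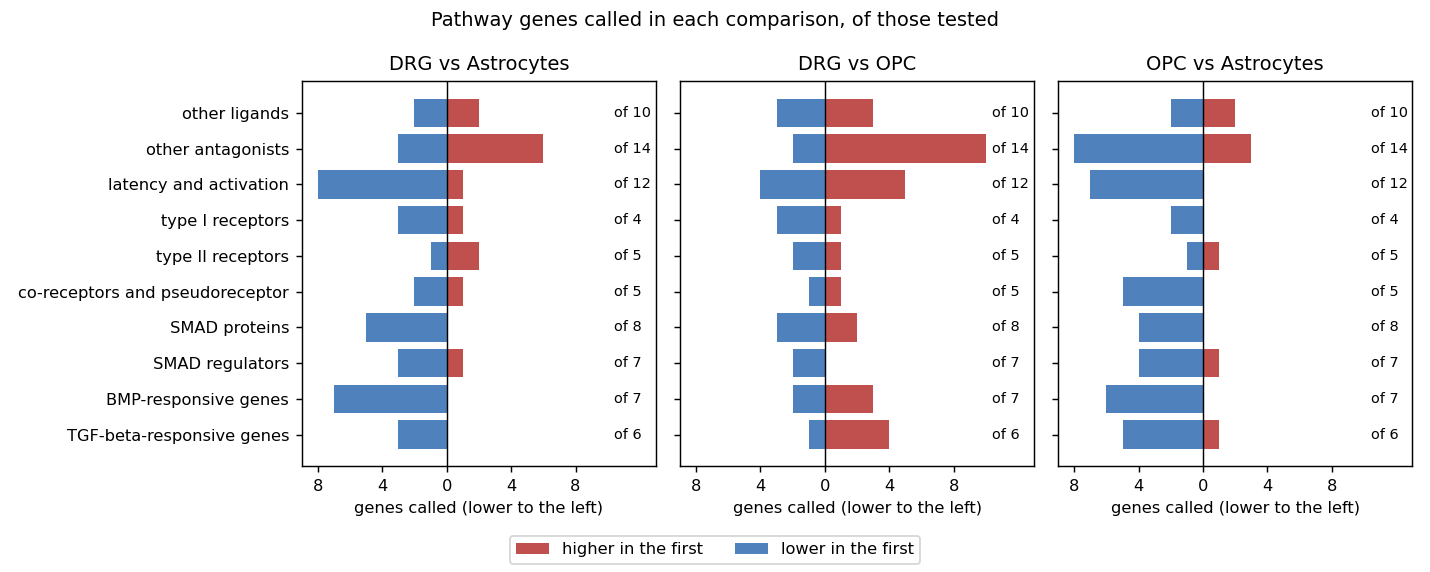
Genes of each pathway list called higher (right of 0) or lower (left of 0) in the cell type named in front, with the number tested at the right edge. The BMP-responsive genes lie wholly to the left in DRG cultures against astrocytes, with 7 of 7 lower.

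Of 24 other ligands of the superfamily, 10 were tested. In DRG cultures 2 were higher and 2 lower than in astrocytes, and 3 were higher and 3 lower than in OPC (1 lower without DRG replicate 2 or DRG replicate 3). Inhbb, the other activin beta subunit, averaged 24.7 ± 9.07 CPM in astrocytes and 35.7 ± 1.63 in OPC but 3.70 ± 3.36 in DRG cultures (log2 -2.75, adjusted p = 0.00333, and -3.28, adjusted p = 0.00142), while Inhba had 1 count in each OPC library. Without DRG replicate 1 these log2 differences of Inhbb were -3.78 and -4.32. Mstn, encoding myostatin, averaged 2.06 ± 0.654 CPM in DRG cultures and 0.0798 ± 0.0297 in astrocytes, and had 0 counts in OPC. Inha, the inhibin alpha subunit, was highest in DRG cultures, with a log2 of 1.35 against astrocytes (adjusted p = 0.00851) and of 1.32 against OPC (adjusted p = 0.00975).

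Several other antagonists were higher in DRG cultures, where Nog and Chrdl1 were low. Of 14 tested, 6 were higher and 3 lower in DRG cultures than in astrocytes, a comparison in which 60.2% of all genes were called. Against OPC, where 59.5% of all genes were called, 10 were higher and 2 lower. The 10 higher became 7 without OPC replicate 2. The 2 lower ones are Twsg1 and Vwc2; without DRG replicate 2 neither passed, and only 1 did when DRG replicate 3 or OPC replicate 1 or 3 was left out. Grem1, whose protein blocks BMPs, averaged 1.25 ± 0.536 CPM in DRG cultures, 0.0910 ± 0.0952 in astrocytes and 0.0657 ± 0.0812 in OPC. Vwc2l stood at 14.4 ± 3.65 CPM in DRG cultures and had 0 counts in astrocytes, while its relative Vwc2 was highest in OPC, at 26.5 ± 2.23 CPM. Crim1, a membrane protein that binds BMPs, was an astrocyte gene at 370 ± 76.1 CPM, against 18.8 ± 13.9 in DRG cultures and 12.5 ± 7.22 in OPC. Fst, encoding the activin trap follistatin, was low in OPC, like Inhba, with a log2 of -6.88 against astrocytes (adjusted p = 0.00233) and of 5.68 for DRG cultures against OPC (adjusted p = 0.00412). Without OPC replicate 1 these were -8.63 and 7.44.

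Most genes tested that store and release TGF-beta were lower in DRG cultures, and most were lower in OPC, than in astrocytes. Of 12 tested, 8 were lower and 1 higher in DRG cultures than in astrocytes, and 7 lower and 0 higher in OPC (4 lower without Astrocytes replicate 2 or OPC replicate 2). The higher gene in DRG cultures, Lrrc32, lost its call without Astrocytes replicate 1 or 3 or DRG replicate 1 or 3. Ltbp3, a latent TGF-beta binding protein, averaged 388 ± 126 CPM in astrocytes, 114 ± 12.6 in DRG cultures and 20.5 ± 12.5 in OPC. Thbs1, encoding the activator thrombospondin 1, had a log2 difference of -9.74 in OPC against astrocytes (adjusted p = 0.000169), and -10.55 without OPC replicate 3. Itgb8, an integrin subunit that frees TGF-beta, averaged 120 ± 10.8 CPM in astrocytes and 112 ± 66.2 in OPC but 4.64 ± 3.43 in DRG cultures. Nrros, which holds latent TGF-beta on microglia, averaged 13.2 ± 11.7, 0.294 ± 0.218 and 2.86 ± 2.68 CPM in astrocytes, DRG cultures and OPC, beside the microglia sums given with Tgfb1.

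The BMP receptor genes Bmpr1a and Bmpr2 were well expressed in all 3 cell types. Receptors are ranked below by CPM, which is not per length and under-counts genes with more than 1 transcript. Bmpr1b, with 5 transcripts, and Tgfbr2, with 2, are among the genes under-counted, so their low CPM cannot be ranked against the others. Of 4 type I receptors tested, 3 were lower and 1 higher in DRG cultures than in astrocytes, and of 5 type II receptors 1 was lower and 2, Acvr2a and Bmpr2, were higher. Of these 2, 1 passed without Astrocytes replicate 2, DRG replicate 1 or OPC replicate 2, and 0 without Astrocytes replicate 1, Astrocytes replicate 3 or DRG replicate 2. Bmpr1a was the type I receptor of highest CPM in each, at 454 ± 35.8 CPM in astrocytes, 208 ± 68.1 in OPC and 100 ± 13.7 in DRG cultures (log2 of DRG minus astrocytes -2.18, adjusted p = 0.000110). Bmpr2 was the type II receptor of highest CPM in each and was highest in DRG cultures, at 538 ± 95.8 CPM. Astrocytes averaged 233 ± 25.0 CPM (log2 of DRG minus astrocytes 1.21, adjusted p = 0.0193) and OPC 164 ± 91.6 CPM. Its difference from astrocytes ended without Astrocytes replicate 1 (adjusted p = 0.0501), Astrocytes replicate 3 (adjusted p = 0.0541) or DRG replicate 2 (adjusted p = 0.0563). Tgfbr1, the TGF-beta type I receptor, was lowest in DRG cultures, with a log2 of -1.62 against astrocytes (adjusted p = 0.0127) and of -1.60 against OPC (adjusted p = 0.0135). Without Astrocytes replicate 1 the first was -0.98 (adjusted p = 0.0369). Of 5 co-receptor genes tested, 5 were lower in OPC than in astrocytes, but the call of Tgfbr3 ended without Astrocytes replicate 1 (log2 -0.35, adjusted p = 0.521) and without any single DRG or OPC library. Among them, Rgma was an astrocyte gene (114 ± 9.43 CPM) and Rgmb a DRG gene (195 ± 20.4 CPM, against 25.9 ± 3.75 and 11.5 ± 1.75 in astrocytes and OPC). The pseudoreceptor Bambi was highest in astrocytes, at 46.4 ± 7.81 CPM.

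SMAD genes were lower in DRG cultures than in astrocytes for 5 of 8, and in OPC for 4 of 8, with 0 higher in each. Smad3, which carries TGF-beta and activin signals, averaged 76.4 ± 10.8 CPM in astrocytes, 14.2 ± 0.136 in OPC and 4.77 ± 2.05 in DRG cultures. The inhibitory Smad6 averaged 38.1 ± 9.0 CPM in astrocytes, 1.10 ± 0.576 in DRG cultures and 0.0297 ± 0.0131 in OPC, and Smad7 also was highest in astrocytes (29.1 ± 5.14 CPM). By mean CPM, Smad4 stood highest of the SMAD genes in astrocytes and OPC, and Smad1 in DRG cultures, at 84.7 ± 37.6 CPM. CPM is not per length and under-counts genes with more than 1 transcript, so Smad2 (2 transcripts) and Smad5 (3 transcripts) cannot be ranked. In astrocytes Smad9 averaged 101 CPM against 106 for Smad4, and was above it in Astrocytes replicate 1. In DRG cultures Smad9 averaged 71.1 ± 7.65 CPM and was above Smad1 in DRG replicate 3. Smad9 was low in OPC, with a log2 of -3.36 against astrocytes (adjusted p = 7.51e-05) and of 2.86 for DRG cultures against OPC (adjusted p = 8.81e-05). Of the 7 genes that regulate SMADs, 3 were lower and 1 higher in DRG cultures than in astrocytes, and 4 lower and 1 higher in OPC. The higher gene was Zfyve9 in both comparisons. Its call in DRG cultures (log2 1.44, adjusted p = 0.00124) stayed with any 1 library left out. In OPC against astrocytes Zfyve9 lost its call without Astrocytes replicate 2, Astrocytes replicate 3 or OPC replicate 1.

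Genes that BMPs are known to induce were lower in both other cell types than in astrocytes. All 7 tested were lower in DRG cultures, also with any 1 library left out, and 6 of 7 were lower in OPC (5 to 6 with a library left out, since Id2 lost its call without Astrocytes replicate 1 or 3 or OPC replicate 1 or 2). Id3, an inhibitor of basic helix-loop-helix factors, averaged 490 ± 75.5 CPM in astrocytes, 11.9 ± 5.32 in DRG cultures and 20.0 ± 8.51 in OPC. Id1 averaged 182 ± 48.6, 40.5 ± 6.02 and 13.3 ± 6.46 CPM in the same order, and Atoh8 87.1 ± 16.5, 5.40 ± 2.01 and 5.93 ± 2.29 CPM. Msx2, a homeobox gene, averaged 8.34 ± 2.96 CPM in astrocytes and 0.405 ± 0.220 in DRG cultures and had 0 counts in OPC. DRG cultures against OPC were mixed, with 3 higher and 2 lower.

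Most genes tested that TGF-beta is known to induce were lower in OPC than in astrocytes. Of 6 tested, 5 were lower and 1 higher in OPC than in astrocytes, and 4 were higher and 1 lower in DRG cultures than in OPC. In DRG cultures 3 were lower and 0 higher than in astrocytes (2 to 4 lower with a library left out). Ccn2, a matrix-associated growth factor binder, averaged 1275 ± 1168 CPM in astrocytes, 77.8 ± 74.2 in DRG cultures and 0.394 ± 0.119 in OPC. Pmepa1, a feedback inhibitor of SMAD signalling, averaged 272 ± 196, 113 ± 11 and 9.06 ± 3.86 CPM in the same order. Klf10 went the other way, since OPC averaged 45.7 ± 14.2 CPM and astrocytes 18.7 ± 5.92 (log2 1.29, adjusted p = 0.00843). With OPC replicate 3 left out, Klf10 had an adjusted p of 0.0526. The sums for fibroblasts and mural cells given above were also lowest in OPC, and their part was not tested.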

How the data were processed

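Raw read counts per RefSeq transcript were deposited for each of the 9 libraries. Reads had been aligned to mm10 with TopHat2 and counted with HTSeq, per the submitters' processing notes; which versions, counting mode and strand setting were used is not given in the sources used here. Per the labels' protocols, the libraries were made with a stranded mRNA kit. Between 37.1 and 46.9% of reads named no transcript, 22.0 to 24.7% being ambiguous, so genes with more than 1 transcript are under-counted.

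Counts were summed over the accessions of a gene (33787 accessions, 24170 genes; 33315 accessions were matched in RefSeq's gene table for GRCm38.p6, 193 from GENCODE vM21 and 279 left unnamed). Genes were tested by quasi-likelihood in edgeR 4.0.16 (R 4.3.3), with all 9 libraries in 1 model, which leaves 6 residual degrees of freedom. Library sizes were scaled by TMM, and filterByExpr with a minimum count of 10 removed low genes. P-values were adjusted by Benjamini-Hochberg over 14848 genes, with a threshold of 0.05. Each SE was worked back from the log2 value and the F statistic (absolute log2 over root F). CPM use library sizes scaled by the TMM factors. Lengths per kilobase came from GENCODE vM21 and coordinates from the RefSeq table. Intervals cover counting error only.

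The members and lists were chosen with earlier results of these data known. All members were named; for each, the gene of highest correlation; and of each pathway list, genes called with at least a 2-fold difference in 1 cell type against both others, plus receptors and SMADs of highest CPM. Twsg1, Acvr2a, Tgfbr3 and Zfyve9 are named outside this rule, after their values were seen. A few genes that the rule names, the closest gene to Inhba among them, are not reported here. Alternatives were other scalings, no filter, DESeq2 1.42.0, a replicate block, only the libraries compared, 1 accession per gene, and each library left out. Same-numbered libraries of different cell types had correlations of their deviations of -0.04 to 0.11 in 9 pairs. Libraries of unlike number had -0.12 to 0.07 in 18 pairs. These values cannot settle whether the numbers mark a shared preparation, and the main model did not pair the libraries.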

Additional observations from a re-analysis of the deposited data

How the results depend on the processing

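Over 17 alternatives, 17 of the 30 member comparisons kept their direction and side of the threshold in all, and 13 changed in some. With 1 library left out, members called ran from 5 to 9 in DRG cultures against astrocytes, 5 to 6 in DRG cultures against OPC and 6 to 7 in OPC against astrocytes; with DESeq2 they were 9, 5 and 8. The direction of Bmp4 in DRG cultures against OPC turned with RLE size factors (log2 0.0386), DESeq2 (0.036), the replicate block (0.85), without DRG replicate 2 (0.24) and without OPC replicate 1 (3.35), within a leave-one-out range of -0.72 to 3.35. Nog in DRG cultures against OPC turned without DRG replicate 1 (-0.11; range -0.11 to 0.94), and Bmp2 in OPC against astrocytes turned without Astrocytes replicate 1 (0.0492; range -1.02 to 0.0492) and without it and OPC replicate 3 together (0.011). The cause was not tested.

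The replicate block gave 8, 6 and 6 members called; it added Tgfb2 in DRG cultures against OPC (log2 -1.27, adjusted p = 0.0393) and changed no other call. Of the 9 libraries, 5 correlated best with their own number. Scaling by library size alone moved the median of all genes by -0.26, -0.15 and -0.11 on the log2 scale in the 3 comparisons, RLE factors by 0.07, 0.17 and -0.10, and DESeq2 by 0.07, 0.16 and -0.09. Depth limits Inhba and Bmp6 in OPC and Chrdl1 in DRG cultures, with 3, 22 and 28 counts. With 3 libraries a group, gene values were not searched for outlying libraries.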
